A study of Mus musculus with 6 samples.

Results

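DNA methylation was described at 211 regions inside 3 stretches of the mouse genome (mm9 build) that hold clusters of olfactory receptor genes: a proximal stretch of chromosome 9 from 18.5 to 20.3 Mb, a distal stretch of chromosome 9 from 37.4 to 40.2 Mb, and a stretch of chromosome 10 from 128.4 to 129.7 Mb. A region was a run of at least 3 array probes with starts no more than 500 bp apart. The rule used position alone, but it was set with earlier results of these data known. The proximal cluster held 41 regions, the distal cluster 113 and the chromosome 10 cluster 57, out of 22574 regions on the whole array. They contained 1552 of the 1580 probes inside the 3 stretches, and the other 28 probes stood too far from neighbours to form a region. A region had a median of 8 probes and 1636 bp. The DNA came from hypothalamic tissue of mouse offspring at the age of 16 week. One group (inulin) was born to dams that received the plant fibre inulin, and the other (obesity) to obese dams, which the labels also describe by a maternal high fat diet, with 3 arrays in each group. The labels give no strain, sex or litter, and do not say whether the dams given inulin were themselves obese. The question of the design is whether methylation in the offspring hypothalamus differs between these maternal treatments.

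Olfactory receptors are G-protein-coupled receptors for odorants and form the largest gene family of the mouse genome. Their genes lie side by side in clusters, and each olfactory sensory neuron of the nose expresses one of them, while the genes are held silent in most other tissues, the brain included. Their promoters are rich in A and T, and most lack CpG islands, the stretches where the methylatable CpG dinucleotides are dense. In MeDIP, the assay used here, an antibody against methylated cytosine enriches methylated DNA fragments, so the signal of a region depends both on how much of its CpG is methylated and on how many CpG it holds. Only DNA was measured, so the expression of these genes, and the cell types in the tissue, could not be checked. The DNA was extracted from whole tissue, so a change in all cells and a change in the share of a cell type cannot be told apart.

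The base composition of these clusters can be seen around their annotated gene starts. In the RefSeq gene order of the build GRCm38.p6, chromosome 9 carries a first run of 51 Olfr genes from Olfr24 to Olfr18 (35 of them protein coding), followed by Zfp560, and a second run of 126 from Olfr160 to Olfr986 (95 protein coding), followed by Zfp202. Chromosome 10 carries 69 from Olfr9 to Olfr827 (58 protein coding), between Mettl7b and Neurod4. The array files name no gene for a probe and their positions are in another build, so these genes were not matched to single regions and regions are named by position. RefSeq promoters, from 250 bases before to 50 bases after the annotated start of a gene, were at hand for 156 of these genes, 30, 79 and 47 in the 3 runs. In Olfr24 and Olfr767, printed below, the annotated start falls on an ATG. Such stretches may flank the start of the coding sequence rather than that of transcription, which was not checked for these or other genes. The word promoter is used for them in this sense only. The 156 promoters held a median of 1 CG (searched as CG, which reads the same on both strands) against 7 over 27025 promoters of all genes. At most 1 CG was found in 73.7% of them against 14.6% of all promoters, and their median GC content was 33.7% against 52.7%. Below are the first promoter of each run with the median CG count of its run, rounded down, and the promoter with the most CG of all 3 runs (8), which show how sparse CG is in such DNA. They are given 5′ to 3′ on the strand of the gene, which is the minus strand for Olfr24, Olfr767 and Olfr976 and the plus strand for Olfr881, and capitals mark each CG.
Olfr24: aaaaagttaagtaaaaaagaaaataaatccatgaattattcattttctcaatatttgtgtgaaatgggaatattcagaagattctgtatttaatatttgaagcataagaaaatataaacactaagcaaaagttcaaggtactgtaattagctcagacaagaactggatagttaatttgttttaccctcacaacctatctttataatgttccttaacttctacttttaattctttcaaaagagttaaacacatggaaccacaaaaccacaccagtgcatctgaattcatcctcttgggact
Olfr881: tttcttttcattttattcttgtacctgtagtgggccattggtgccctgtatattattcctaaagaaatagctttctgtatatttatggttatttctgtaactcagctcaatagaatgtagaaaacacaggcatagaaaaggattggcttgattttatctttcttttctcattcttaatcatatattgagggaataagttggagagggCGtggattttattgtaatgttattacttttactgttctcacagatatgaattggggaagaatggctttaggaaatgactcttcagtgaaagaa
Olfr767: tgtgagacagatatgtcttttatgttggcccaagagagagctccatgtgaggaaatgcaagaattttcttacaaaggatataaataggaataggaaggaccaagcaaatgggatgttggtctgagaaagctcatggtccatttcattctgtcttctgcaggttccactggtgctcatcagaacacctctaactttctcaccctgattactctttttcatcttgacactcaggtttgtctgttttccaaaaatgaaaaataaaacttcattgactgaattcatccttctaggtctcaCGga
Olfr976: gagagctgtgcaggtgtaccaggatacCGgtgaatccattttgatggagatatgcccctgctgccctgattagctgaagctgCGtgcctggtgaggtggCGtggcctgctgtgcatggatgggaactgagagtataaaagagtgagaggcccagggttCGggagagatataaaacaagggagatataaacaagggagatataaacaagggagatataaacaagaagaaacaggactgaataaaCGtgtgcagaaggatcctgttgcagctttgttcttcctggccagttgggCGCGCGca
The promoter of Olfr24 holds 0 CG in 300 bases, those of Olfr881 and Olfr767 hold 1 each, and that of Olfr976 stands apart with 8.

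Each array carried the MeDIP DNA of a sample in the Cy5 (red) channel and its input DNA, the same DNA without enrichment, in the Cy3 (green) channel. Values below are the log2 ratio of MeDIP over input, averaged over the probes of a region, with each array centred so that 0 is the median of its probes. The log2 signals of each channel, centred the same way, are given beside them. Across the 6 arrays, 94.4% to 96.4% of all probes had an input signal well above background and 77.3% to 85.7% a MeDIP signal, while at the probes of the 3 stretches these shares were 82.8% to 90.4% and 48.8% to 60.7%. The obesity arrays spread more widely around 0: the interquartile range of the ratio over all probes was 1.73 ± 0.14 there and 1.38 ± 0.0076 on the inulin arrays (SD, n = 3 each). By the file headers all inulin arrays belonged to 1 scan, obesity arrays 1 and 3 to another and obesity array 2 to yet another, so scan and group cannot be told apart. With 3 arrays in a group, precision is limited by their number. Since separate litters are not stated, p-values measure only the spread between these samples.

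The 3 clusters were depleted in MeDIP signal relative to input on all 6 arrays. The median log2 ratio, a level over the 6 arrays, was -1.25 in the proximal, -0.70 in the distal and -1.08 in the chromosome 10 cluster, against -0.055 over all regions of the array. Of the 211 regions, 201 lay below the median of all regions, and single regions ran from -2.96 to 0.17. The 7 regions with a mean ratio above 0 all lay in the distal cluster. The order of the clusters was the same on all 6 arrays for the distal cluster, which was the least depleted. Its median on inulin arrays 1 to 3 was -0.63, -0.57 and -0.46, and on obesity arrays 1 to 3 it was -0.80, -1.09 and -0.87. For the chromosome 10 cluster the inulin medians were -0.88, -0.83 and -0.75 and the obesity medians -1.16, -1.39 and -1.29. In the proximal cluster they were -1.24, -1.05 and -0.77 against -1.28, -1.68 and -1.37. In each cluster the 3 inulin arrays therefore lay above the 3 obesity arrays, with the closest values in the proximal cluster, where inulin array 1 and obesity array 1 nearly met. The proximal cluster was the lowest on all 6 arrays, by a margin that was smallest on inulin array 3.

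Both channels were dim there. The median centred log2 MeDIP signal was -2.36, -1.68 and -1.52 in the proximal, distal and chromosome 10 clusters (0.057 over all regions), and the median input signal was -1.10, -0.86 and -0.46 (0.049 over all regions). The low ratio was thus measured on DNA whose input signal was itself low in 171 of the 211 regions, taking the median of all regions as the mark. The chromosome 10 cluster was the brightest of the 3 in both channels. A median of 35.4% of the MeDIP spots of a proximal region, 54.8% of a distal and 57.1% of a chromosome 10 region were well above background, against 83.3% over all regions. Probes were also longer here, with a mean length per region of 55.9 bp in the median against 48.5 bp, and 48.3% of the probes in the 3 stretches had the full length of 60 bp against 13.2% on the array. Probe length and the brightness of both channels thus differed from those of the array, and their part in the differences below was not tested.

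**Figure D1:**
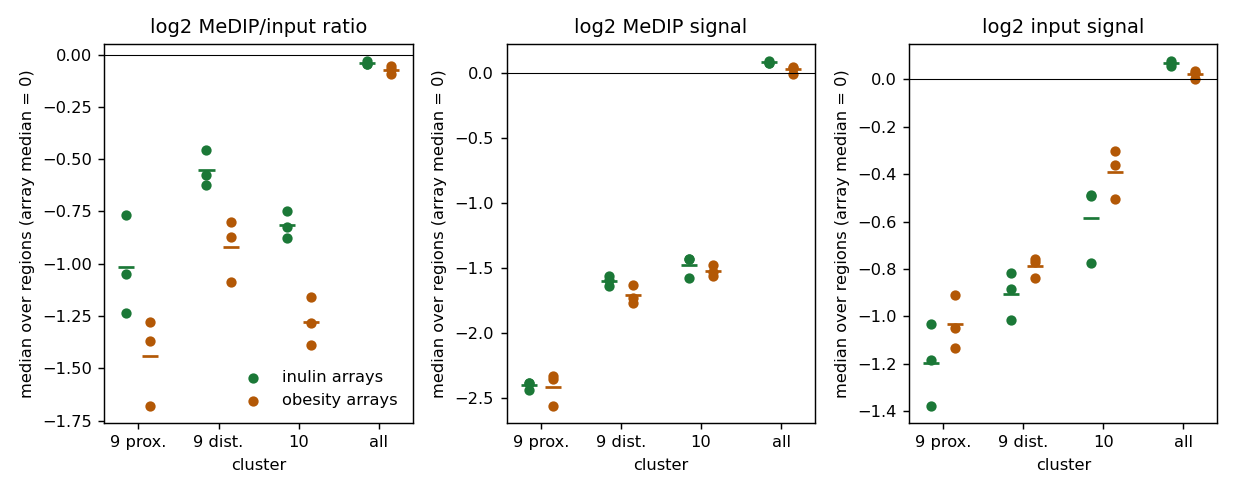
Median over the regions of each cluster (9 prox., 9 dist. and 10) and of all regions (all) on every array, for the log2 MeDIP/input ratio (left), the log2 MeDIP signal (middle) and the log2 input signal (right), each centred on the array's median probe. Points are the 3 inulin (green) and 3 obesity (brown) arrays and bars their mean; the ratio lies above that of the obesity arrays on all inulin arrays in each cluster, and the distal cluster is the least depleted.

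A minority of single regions passed the test between groups, and all that did were higher in the inulin group. By limma over all 22574 regions, called at a Benjamini-Hochberg adjusted p under 0.05, 55 of the 211 regions (26.1%) were called higher, against a background of 5.61% of all regions. Called regions numbered 12 of 41 in the proximal, 28 of 113 in the distal and 15 of 57 in the chromosome 10 cluster (29.3%, 24.8% and 26.3%), and the differences between these shares were not tested. Lower calls numbered 0 of 211, against a background of 1.81%, and 2 regions were lower at an unadjusted p under 0.05 (limma), beside 126 that were higher at that level (0.948% and 59.7%; over all regions 9.60% and 19.0%). The 55 differences ran from 0.31 to 1.26, with a median of 0.72 in the proximal, 0.50 in the distal and 0.55 in the chromosome 10 cluster. Over all regions of each cluster, called or not, the median difference was 0.46, 0.30 and 0.35, against 0.033 over all regions of the array. The difference was positive in 198 of the 211 regions (93.8%) and in 57.3% of all regions. All 3 inulin arrays lay above all 3 obesity arrays in 120 regions (56.9%; background 20.8%) and below them in 3 (1.42%; background 14.2%). At the edge of the threshold stood chr9:39357958-39359351, called with a difference of 0.43, and chr9:19165302-19167086, not called with 0.60.

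These calls depended on single arrays and on how the scan was treated. Without any 1 of the inulin arrays, limma called 0 of the 211 regions, although 131, 111 and 101 had an unadjusted p under 0.05 when inulin array 1, 2 or 3 was left out (62.1%, 52.6% and 47.9%). Of all 22574 regions 0 were called then as well, with 4704, 4314 and 5428 at that unadjusted level (20.8%, 19.1% and 24.0%). Without obesity array 1, 2 or 3, the counts of higher calls were 55, 53 and 23 (26.1%, 25.1% and 10.9%), against backgrounds of 3.61%, 6.68% and 2.29%. When the scan entered limma as a random block (correlation estimated at 0.289), 0 of the 211 passed, beside 104 at an unadjusted p under 0.05 (49.3%), and 0 of all regions passed, beside 4049 at that level (17.9%).

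**Figure D2:**
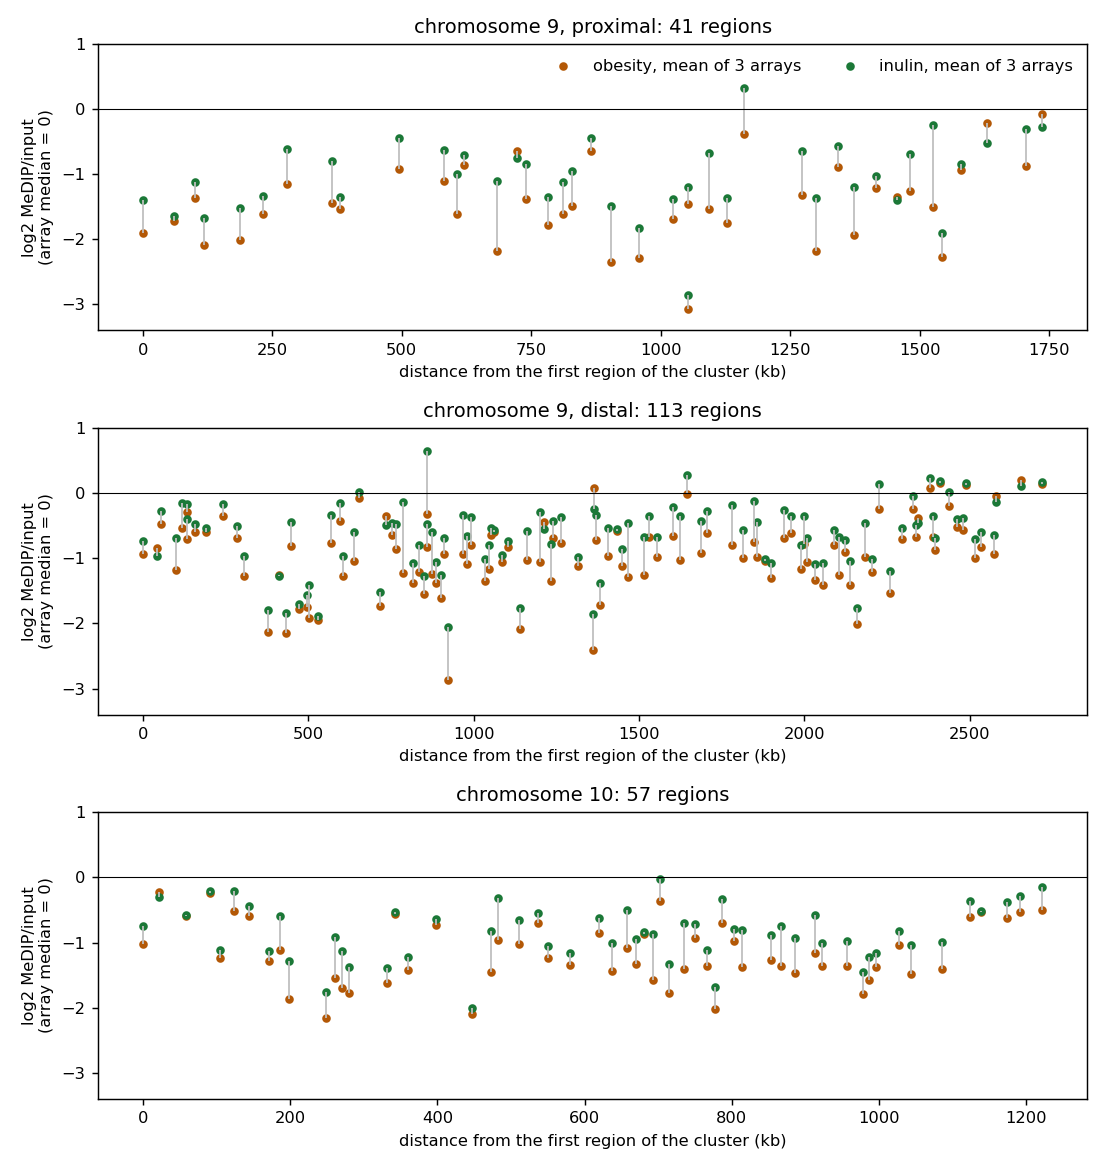
Mean log2 MeDIP/input ratio (array median = 0) of the 3 inulin arrays (green) and the 3 obesity arrays (brown) at each of the 211 regions, against the distance in kb from the first region of its cluster. Grey lines join both means of a region; nearly all lie below 0, and the inulin mean is the higher in 198 regions.

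In the proximal cluster the leading region was chr9:20085495-20087026, with 7 probes. Its ratio was -0.43, -0.19 and -0.09 on inulin arrays 1 to 3 and -1.26, -2.07 and -1.16 on obesity arrays 1 to 3. The groups stood well apart, and obesity array 2 was the lowest. The difference was 1.26 (SE 0.21; limma adjusted p = 0.0204), and on the input channel the same region was lower in the inulin group by a called difference (-0.83, limma adjusted p = 0.0254), beside a MeDIP difference of 0.41 that did not pass (limma adjusted p = 0.323). This was the region called most often: it stayed higher in 6 of the 7 other treatments of the array values that gave it a value (equal scale, quantile normalization, loess, normexp, the authors' deposited table and a filter on dim input, with differences of 0.298 to 1.07) and lost the call with the median of its probes (limma adjusted p = 0.0614). The filter on both dim channels gave it no value, since fewer than 3 of its probes passed. Next among the proximal regions measured in both channels came chr9:19653692-19655277 with 8 probes, at -0.86, -0.65 and -0.50 on the inulin arrays and -1.28, -2.03 and -1.31 on the obesity arrays. Measured means that both groups had at least 1 probe well above background on at least 1 array. Most MeDIP spots could still be dim: 28.6% were well above background at the leading region and 25% at this one. This region also holds the proximal probe with the lowest p, where no array had a MeDIP signal well above background. Here obesity array 2 again lay lowest, and the groups did not overlap. Its difference was 0.87 (SE 0.19; limma adjusted p = 0.0319). Another called region, chr9:19462629-19464399 with 9 probes, was more depleted, at -1.65, -1.48 and -1.33 against -2.06, -2.71 and -2.25. The groups were again apart, by 0.86 (SE 0.16; limma adjusted p = 0.023), and its input was lower in the inulin group by a called difference (-0.65, limma adjusted p = 0.0483). At chr9:19244086-19245615 no MeDIP probe was well above background in either group, so its call rests on a MeDIP signal that was not measured and the size is left out.

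The least and the most depleted proximal regions differed in channel brightness. At chr9:19721021-19722035 (5 probes) the ratio was 0.24, 0.18 and 0.55 on the inulin arrays and -0.17, -0.64 and -0.33 on the obesity arrays. This was the highest mean ratio of the cluster, the groups did not overlap, and the difference was called (0.70, SE 0.13, limma adjusted p = 0.0246). Its input was very dim, with a centred log2 level of -3.37, -3.35 and -3.62 on the inulin and -3.15, -3.20 and -2.84 on the obesity arrays. The lowest mean ratio of all 211 regions, -2.96, was at chr9:19611471-19611940 (3 probes), where the ratio was -2.92, -2.99 and -2.67 against -2.86, -2.83 and -3.51. The groups overlapped in ratio, with a difference of 0.21 that did not pass (limma adjusted p = 0.466) but was called with loess (0.53, limma adjusted p = 0.0399) and with normexp (0.515, limma adjusted p = 0.0098) and was negative on an equal scale (-0.442, limma adjusted p = 0.179). Yet both channels were lower on all inulin arrays. The input there was 0.34, 0.32 and -0.04 on the inulin and 1.24, 1.40 and 1.13 on the obesity arrays, a called difference of -1.05 (SE 0.13; limma adjusted p = 0.0282) and the largest input difference of the 211 regions. The MeDIP signal moved with it, by -0.86, without passing (limma adjusted p = 0.136). The first of the proximal regions with 9 probes, the most in that cluster, was chr9:18678473-18680172, which had a ratio of -1.68, -1.75 and -1.58 against -1.98, -2.44 and -1.86. Its groups did not overlap, but its difference of 0.42 did not pass (limma adjusted p = 0.0861), although it did with loess (limma adjusted p = 0.0382) and with normexp (limma adjusted p = 0.0294).

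In the distal cluster the leading region was chr9:38207996-38209666, with 8 probes. It stood at -0.23, -0.20 and 0.01 on the inulin arrays and -0.95, -1.65 and -1.06 on the obesity arrays. The groups were apart by more than the spread within either, and the difference was 1.08 (SE 0.17; limma adjusted p = 0.0178). The input signal carried most of this, at -3.03, -2.85 and -3.21 in the inulin group against -2.34, -1.93 and -2.10, a called difference of -0.91 (limma adjusted p = 0.0398) and the largest input difference of the cluster. The MeDIP signal differed by 0.16 (limma adjusted p = 0.51), with 27.1% of its spots well above background. The next region measured in both channels, chr9:38885834-38887500 with 8 probes, was at -0.52, -0.50 and -0.33 against -0.92, -1.60 and -1.34. The inulin arrays lay close together and above all obesity arrays, by 0.83 (SE 0.15; limma adjusted p = 0.0226). At 2 other called regions the size is left out because 1 group had no MeDIP probe well above background: the obesity group at chr9:38279168-38279669, which holds 3 probes, and the inulin group at chr9:38344175-38345818, the most depleted distal region.

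Some distal regions were not depleted and did not differ in the test. The highest mean ratio of the cluster was at chr9:39828739-39830358 (8 probes), with 0.36, 0.23 and -0.02 on the inulin arrays and 0.20, 0.36 and -0.09 on the obesity arrays. The groups overlapped, with a difference of 0.036 (SE 0.13; limma adjusted p = 0.887). Of the 7 distal regions above 0 on average, 1 was called, and it was chr9:38279168-38279669, where the obesity arrays had no MeDIP probe above background. The region with the most probes of all 211, chr9:37420178-37422588 with 11, was at -0.74, -0.78 and -0.69 against -0.89, -1.14 and -0.76. Inulin array 2 lay below obesity array 3, so the groups overlapped, and the difference of 0.19 did not pass (limma adjusted p = 0.228). The brightest input of the 211 regions was at chr9:37553637-37554120 (3 probes), an example chosen after its values were seen, where the centred log2 input signal was 2.16, 2.16 and 2.18 on the inulin and 2.43, 2.60 and 2.56 on the obesity arrays. Its ratio was -0.18, -0.10 and -0.21 against -0.26, -0.23 and -0.38, and the difference of 0.12 did not pass (limma adjusted p = 0.319).

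The chromosome 10 cluster had smaller leading differences, and its first region was the one where the MeDIP signal moved most. At chr10:129160103-129161424, with 6 probes, the ratio was -0.81, -0.58 and -0.71 on the inulin arrays and -1.41, -1.57 and -1.25 on the obesity arrays. The groups were tight and apart, and the difference was 0.71 (SE 0.10; limma adjusted p = 0.0146). The MeDIP signal was -1.50, -1.52 and -1.77 on the inulin and -2.20, -2.35 and -2.12 on the obesity arrays, a difference of 0.63 that did not pass on that channel alone (limma adjusted p = 0.078). The input signal, at -0.75, -1.01 and -1.10 against -0.85, -0.86 and -0.95, overlapped between the groups. The ratio stayed called on an equal scale (0.482), after quantile normalization (0.483), after loess (0.521), with the median of the probes (0.795) and with a filter on dim input (0.454), but was called neither with normexp (0.129, limma adjusted p = 0.0819) nor from the authors' deposited table (0.0577, limma adjusted p = 0.612). It had no value with the filter on both dim channels.

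At the next chromosome 10 regions the input carried a larger share. The ratio at chr10:129119301-129120444 (6 probes) was -1.12, -0.95 and -0.54 against -1.37, -1.67 and -1.68, without overlap. That difference was 0.70 (SE 0.15; limma adjusted p = 0.0303), with 0.30 on the MeDIP and -0.39 on the input channel, neither of which passed. At chr10:128898624-128900052 (7 probes) the ratio was -1.12, -0.57 and -0.77 against -1.33, -1.61 and -1.41, again without overlap, and the difference was 0.63 (SE 0.14; limma adjusted p = 0.0317). At chr10:128687056-128688031 (5 probes) it was -1.09, -0.83 and -0.84 against -1.52, -1.48 and -1.63, with the obesity arrays closest together among the 4 leading regions. Here the difference of 0.62 (SE 0.09; limma adjusted p = 0.0159) came with an input difference of -0.66, the largest of the cluster (limma adjusted p = 0.0643), and a MeDIP difference of -0.06. The MeDIP signal of this region was thus not higher in the inulin group. The most depleted region of the cluster, chr10:128872651-128874363 with 9 probes, was at -2.18, -1.95 and -1.89 against -2.03, -2.10 and -2.15, with overlap and a difference of 0.09 (limma adjusted p = 0.551). The least depleted, chr10:129128603-129130328 with 8 probes, was at -0.07, -0.06 and 0.08 against -0.03, -0.56 and -0.53. Obesity array 1 lay among the inulin arrays, and the difference of 0.35 did not pass (limma adjusted p = 0.129), while without obesity array 1 it did (0.521, limma adjusted p = 0.0315). The first of the chromosome 10 regions with 9 probes, the most in that cluster, was chr10:128425670-128427458, where the inulin arrays lay between -0.84 and -0.66 and the obesity arrays between -1.10 and -0.99. Its groups did not overlap, yet the difference of 0.28 stayed short of the threshold (limma adjusted p = 0.0587), and with loess it passed (limma adjusted p = 0.0418).

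The leading regions held their calls unevenly when the array values were treated in other ways. Counting the 8 treatments of the array values (equal scale, quantile, loess, normexp, the authors' deposited table, either filter on dim probes and the median of the probes) that gave a region a value, chr9:19653692-19655277 stayed called in 4 of 7, chr9:19462629-19464399 in 2 of 7, chr9:38207996-38209666 in 5 of 7 and chr9:38885834-38887500 in 4 of 8. On chromosome 10 the regions at chr10:129119301-129120444, chr10:128898624-128900052 and chr10:128687056-128688031 each stayed called in 1 of 7. On an equal scale the differences there were 0.44, 0.38 and 0.36, with limma adjusted p-values of 0.116, 0.126 and 0.0789. Wherever 7 treatments gave a value to a region of this list, the missing treatment was the filter on both channels. It left these regions fewer than 3 probes, so their differences could not be seen without dim probes. At chr9:19462629-19464399 the difference on an equal scale was 0.43 (limma adjusted p = 0.057). Of the 55 called regions, 6 were called in none of the 8, 4 in at least 5, and 42 had a positive difference wherever a value could be had.

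**Figure D3:**
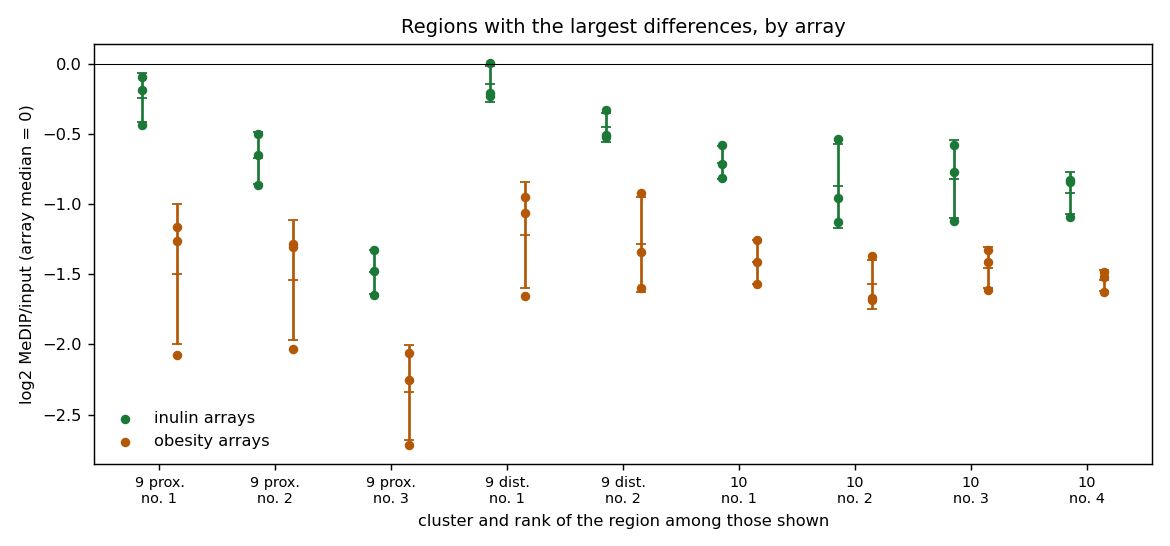
Log2 MeDIP/input ratio (array median = 0) on each array at the called regions with the largest differences in each cluster, left out where 1 or both groups had no MeDIP probe above background: 3 of the proximal (9 prox.), 2 of the distal (9 dist.) and 4 of the chromosome 10 cluster (10). Points are arrays, and lines with caps span the mean ± SD of the 3 inulin (green) and 3 obesity (brown) arrays; in all 9 regions the inulin arrays lie above the obesity arrays.

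The 2 channels moved in opposite directions in most of the regions. At 162 of the 211 regions (76.8%) the input signal was lower in the inulin group, against 42.1% of all regions of the array, with a median difference of -0.32 in the proximal, -0.12 in the distal and -0.16 in the chromosome 10 cluster (0.043 over all regions). The median MeDIP difference was 0.14, 0.17 and 0.14 (0.066 over all regions). A higher MeDIP signal together with a lower input signal was found in 116 regions (55.0%; 16.5% of all regions). Tested alone over all regions by limma, the input signal passed as lower in the inulin group at 8 (background 0.899%) and higher at 0 (background 1.24%), with 5 higher at an unadjusted p under 0.05 (2.37%; 15.6% of all regions). The 8 calls became 3 with the scan as a random block and 0 or 1 without any single array. Of the 8, 5 lay in the proximal, 2 in the distal and 1 in the chromosome 10 cluster, and 7 were also called on the ratio, of which the input is a part. The MeDIP signal alone passed at 0 of the 211 regions (backgrounds 0.155% higher and 0.0975% lower), while 41 had an unadjusted p under 0.05 (limma), 31 higher and 10 lower (14.7% and 4.74%; over all regions 15.2% and 5.78%). On simulated data a MeDIP shift of 0.5 was found at only 5 of 50 regions, so smaller shifts could be missed. Among the 55 regions called on the ratio, the input was lower in the inulin group at 54, differed by more than the MeDIP signal at 41, and the MeDIP signal was lower in the inulin group at 11. Among all 1267 regions of the array called higher, these counts were 1012, 629 and 170. Both channels are part of the ratio by which these regions were picked. The exception on the input among the 55 was chr9:38580257-38580988, named after its values were seen, where both channels were higher in the inulin group, the MeDIP signal by 0.56 and the input by 0.12.

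**Figure D4:**
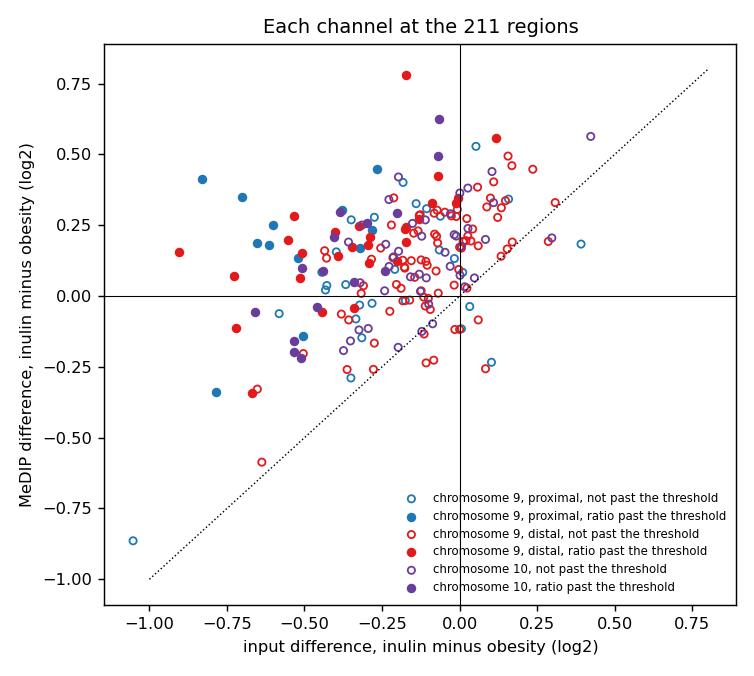
Difference between the groups (inulin minus obesity, log2) in the input signal (horizontal) and the MeDIP signal (vertical) at each of the 211 regions, by cluster; filled points passed the threshold on the ratio, and on the dotted line both channels differ equally. Filled points lie above the line and, with 1 exception, left of 0 on the input axis.

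The size of the difference moved with the brightness of the input. Among the 171 regions whose input was below the median of all regions, 47 were called higher (27.5%) and the median difference was 0.35. Among the 40 brighter regions 8 were called higher (20%) and the median difference was 0.22. Over all regions of the array, whatever their input, 5.61% were called higher. The contrast between the 27.5% and 20% was not tested, and shares by input level over the array are not given. Across the 211 regions, the rank correlation of the input level with the difference was -0.44 (Spearman, as a description; the points share the same 6 arrays), against 0.0084 over all regions of the array. On chromosome 2 from 85 to 90 Mb, another stretch rich in olfactory receptor genes, it was -0.41. The rank correlation of the mean ratio with the difference was -0.52 over all regions and -0.28 over the 211, and on an equal scale its sign turned, to 0.21 and 0.23. That of the input level kept its sign over the 211, at -0.54 on an equal scale, against 0.031 over all regions. The equal scale means that each array is divided by its median absolute deviation so that the wider spread of the obesity arrays is removed. The median difference on it was 0.093 in the proximal, 0.080 in the distal and 0.095 in the chromosome 10 cluster, against 0.018 over all regions. On that scale 14 of the 211 regions were called higher by limma (background 2.15%), 3, 9 and 2 in the 3 clusters, and 1 lower (background 1.89%). All 14 were among the 55. The region called lower was chr9:20189114-20190198 in the proximal cluster, with ratios of -0.56, -0.41 and -0.61 on the inulin and -0.18, -0.12 and -0.33 on the obesity arrays before scaling. Its groups did not overlap on either scale, and before scaling the difference of -0.32 stayed short of the threshold (limma adjusted p = 0.0559).

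**Figure D5:**
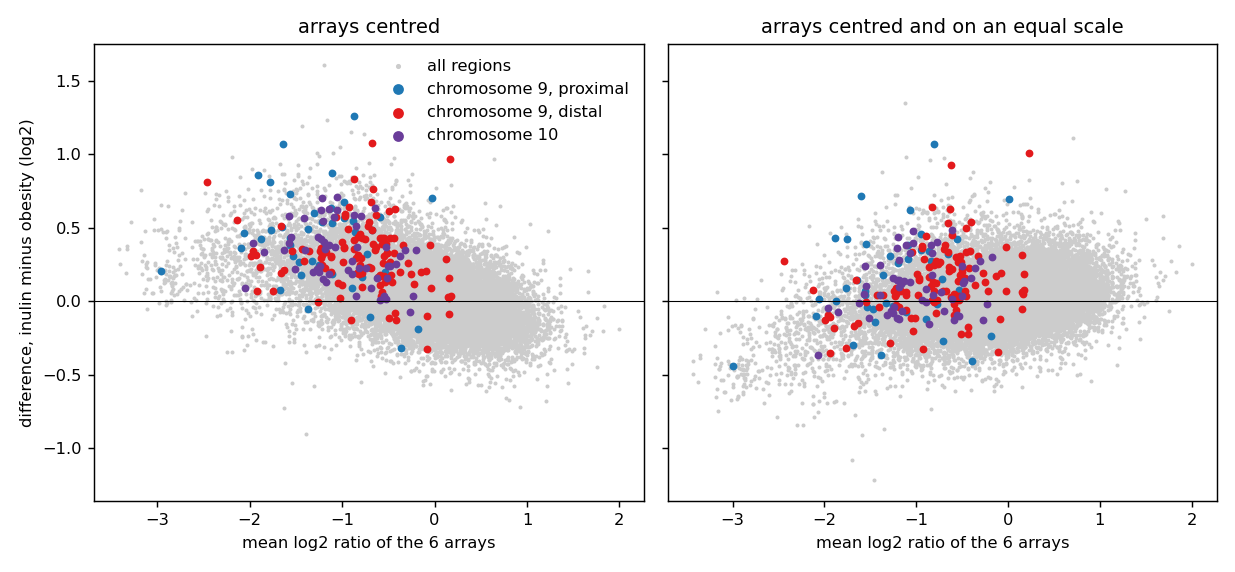
Difference of the log2 ratio (inulin minus obesity) against the mean log2 ratio of the 6 arrays for all 22574 regions (grey) and the 211 regions (coloured by cluster), with arrays centred (left) and centred and on an equal scale (right). The clusters lie at the low end, where with centring alone most differences are above 0; on an equal scale their medians fall to between 0.080 and 0.095.

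Fewer regions were called with filters on dim probes. With probes whose input was well above background on every array, 205 of the 211 regions had values and 26 were called higher by limma (12.7%; background 4.26%) and 0 lower (background 1.48%), with 87 at an unadjusted p under 0.05 in either direction (42.4%; 27.5% of all regions). With both channels well above background, 133 had values, 9 were called higher (6.77%; background 2.98%) and 1 lower (background 3.52%). The 9 were 3 on chromosome 10, at chr10:129382622-129384245, chr10:129412114-129413612 and chr10:129511009-129511943, with differences of 0.416, 0.379 and 0.497, and 6 in the distal cluster, led by chr9:38781963-38782785 (0.523). Not all of the 9 were among the 55: chr10:129382622-129384245 and chr10:129412114-129413612 were not called without the filter. The proximal cluster gave the 1 lower call, at chr9:20189114-20190198 (-0.481), and no higher call with this filter. At chr10:129511009-129511943, with all its probes, the ratio was -1.08, -1.02 and -0.87 on the inulin and -1.32, -1.50 and -1.38 on the obesity arrays. Its groups did not overlap and the difference was 0.41 (limma adjusted p = 0.029), with an input difference of -0.34 and a MeDIP difference of 0.05. With the values of the authors' deposited table (scale unknown), 1 of the 211 regions was called higher (background 0.709%) and 0 lower (background 1.05%), with 27 at an unadjusted p under 0.05 (limma; 12.8%, below the 21.2% of all regions). The region called from the deposited table was chr9:20085495-20087026. After quantile normalization 10 of the 211 were called higher (background 1.11%) and 0 lower (background 1.09%), with 74 at an unadjusted p under 0.05 (limma; 35.1%, against 23.4% of all regions), and all 10 were among the 55. After loess within arrays limma called 55 higher (background 8.45%) and 2 lower (background 3.94%), and with normexp background correction 41 higher (background 4.55%) and 1 lower (background 3.96%).

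Single probes showed the same direction and the same limit. Of 1555 probes tested in the 3 stretches, 212 were called higher in the inulin group by limma (13.6%; background 5.12%) and 23 lower (1.48%; background 3.08%). With the scan as a random block 5 were called, beside 270 of the 170019 probes tested on the array. Without inulin array 1, 2 or 3, calls numbered 38 of 1549, 28 of 1544 and 49 of 1544. Over the whole array they then numbered 925 of 167208, 701 of 166696 and 2224 of 167153. Higher probes numbered 48 in the proximal, 114 in the distal and 50 in the chromosome 10 cluster (16.6%, 13.5% and 11.9%). At 141 of the 212 no array had a MeDIP signal well above background, and at 55 it was measured in both groups. Over all member probes the MeDIP signal was never above background at 36.5%, against 12.5% on the array. The probe with the lowest p of each cluster was of this kind, and its size is left out: Ch_220697_0158063 on chromosome 9 from 19655218 to 19655277, Ch_220697_0159920 on chromosome 9 from 39267799 to 39267858 and Ch_220697_0007944 on chromosome 10 from 129141745 to 129141804, all 60 bp long.

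The number of calls varied along the clusters, and the differences between stretches were not tested. In stretches of 0.5 Mb, the proximal cluster held 7 calls among 12 regions from 19.5 to 20 Mb and 1 among 9 from 18.5 to 19 Mb. The distal cluster held 10 among 25 from 37.9 to 38.4 Mb, and 0 among 8 in its last stretch, from 39.9 to 40.2 Mb, where 2 had an unadjusted p under 0.05 (limma). That last stretch was also the least depleted, with a median ratio of -0.28, and had shorter probes (median of the regions' mean length 49.6 bp) and a brighter input (0.18). In the chromosome 10 cluster the 3 stretches held 6 of 20, 7 of 26 and 2 of 11.

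Outside the clusters the ratios lay closer to the median of the array. In the 2000000 bp on either side of the proximal cluster the median ratio was 0.087 over 81 regions, and the median difference was -0.040. There 1 region was called higher (1.23%; background 5.61%) and 7 lower (8.64%; background 1.81%). Around the distal cluster 47 regions had a median ratio of -0.30 and a median difference of 0.039. Of these, 3 were called higher (6.38%) and 0 lower, and 5 were lower at an unadjusted p under 0.05 (limma; 10.6%, against 9.60% of all regions). Around the chromosome 10 cluster 101 regions had a median ratio of 0.026 and a median difference of -0.0025. Of these, 5 were called higher (4.95%) and 0 lower, and 10 were lower at that level (9.90%). On chromosome 2 from 85 to 90 Mb, another stretch rich in olfactory receptor genes, the ratios were close to those of the 3 clusters: 227 regions had a median ratio of -0.91 and a median difference of 0.35, and 70 were called higher (30.8%) and 1 lower (0.441%). The input was dimmer there, with a median of -1.34 against -0.83 over the 211 regions. It was lower in the inulin group at 175 regions (77.1%), and at 135 (59.5%) this came with a higher MeDIP signal. The differences between these stretches were not tested.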

How the data were processed

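Scanner files of 6 arrays, 3 per group, were read. Per the file headers, the authors extracted the images with Feature Extraction 11.0.1.1, which gave processed intensity per channel after background subtraction and a linear dye normalization. Per the file headers a log10 ratio of red over green is also given, which was checked to equal that of the processed signals within 0.0001 at 98.5% to 99.6% of the probes. The authors' deposited table holds a score per probe. Its direction follows the array ratios (r of 0.87 to 0.91), while its scale, centring and making are not stated. Its medians were 0.061, 0.057 and 0.043 in the inulin and 0.056, 0.054 and 0.054 in the obesity group.

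From these, log2 of red over green was computed for the 174638 probes that are not controls, without outlier spots (1901 to 4863 per array), centred on each array's median, and averaged by region. A value had to be present on 2 or more arrays in both groups. The test was limma 3.58.1 (R 4.3.3) over all regions or probes, two-sided, at 0.05 after Benjamini-Hochberg adjustment, as inulin minus obesity. The fit was tested on simulated data with 50 changed features per size of shift. A shift of 0.5 was recovered at 40 regions for the ratio, 15 for the input and 5 for the MeDIP signal, and at 0 probes. A shift of 1 was recovered at 50, 44 and 45 regions and at 17 probes. Scans were told apart by the image identifiers in the headers.

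Named regions are, per cluster, the up to 4 called regions with the largest difference, those with the highest and lowest mean ratio, the largest input and MeDIP difference and the most probes (the first where tied), and the probe with the lowest p; others are said to be chosen after their values were seen. The regions, rules and lists were chosen with earlier results of these data known. Alternatives were equal scale, quantile, loess, normexp (offset 50, on median spot signals), the deposited table, filters on dim input and on both dim channels, the median of probes, gaps of 300 and 1000 bp, blocks for replicate number and scan, and leaving out each array. Figures were drawn with matplotlib 3.10.9.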

Additional observations from a re-analysis of the deposited data

How the results depend on the processing

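The median ratio difference of the proximal, distal and chromosome 10 clusters (0.463, 0.302 and 0.347) stayed positive under all alternatives run, except on chromosome 10 in the authors' deposited table, where the medians were 0.076, 0.0296 and -0.00146. Equal scaling gave 0.0933, 0.0805 and 0.095, quantile normalization 0.139, 0.0986 and 0.104, normexp 0.189, 0.101 and 0.0994, and the medians were 0.155, 0.0867 and 0.0758 over probes above background in both channels. On chromosome 10 it was 0.238 with loess and 0.176 over probes with input above background. Leaving out 1 array gave 0.326 to 0.52, 0.241 to 0.362 and 0.252 to 0.404.

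Of the 211 regions, the number called went from 55 to 15 with equal scaling, 10 with quantile normalization and 1 in the deposited table. It was 26 over probes with input above background, 10 over probes above background in both channels and 21 with the median of the probes. With the scan as a random block it was 0, and without 1 array 0 to 55. The 1675 calls among all regions of the array became 911 with equal scaling, 497 with quantile normalization, 397 in the deposited table, 733 with the median of the probes, 0 with the scan as a block, 2798 with loess, and 0 to 2171 without 1 array. The 235 probes called became 113 on an equal scale, 5 with the scan as a block and 28 to 233 without 1 array. Over all probes of the array, 13956 calls became 5967, 270 and 701 to 15200 in the same settings. The 8 input calls became 19 on an equal scale, 3 with the scan as a block and 0 to 1 without 1 array, and the 0 MeDIP calls became 1 without obesity array 3 and ranged from 0 to 1.

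With the replicate number as a replicate block, 85 of the 211 regions, 2699 of all regions and 0 of the input calls were found. Arrays of the same number deviated together with correlations of -0.145, 0.278 and 0.329, against -0.378 to 0.217 for arrays of different numbers. The numbers were not taken to pair the arrays, and whether they do was not tested.

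Among the named regions, the difference turned negative at chr10:128425670 (-0.232) and chr9:37420178 (-0.182) with the median of the probes, and in the deposited table at chr10:128687056 (-0.0113), chr10:129119301 (-0.0137), chr9:18678473 (-0.013) and chr10:128872651 (-0.194). The last was also -0.364 on an equal scale, -0.297 after quantile normalization and -0.0865 with both channels above background. At chr9:19611471 it was -0.442 on an equal scale, -0.228 after quantile normalization and -0.0162 without obesity array 3. At chr9:39828739 it was -0.00261 with normexp, -0.131 over probes with input above background, -0.152 with both channels above background, -0.0496 without inulin array 1 and -0.0886 without obesity array 3, within a range of -0.0886 to 0.141 over the left-out arrays. Named regions not called in the report passed at chr9:19611471 with loess (0.53) and normexp (0.515), at chr9:18678473 with loess (0.341), normexp (0.189) and the replicate block (0.425), at chr10:128425670 with loess (0.274), the replicate block (0.278) and gaps of 300 bp (0.673), and at chr10:129128603 without obesity array 1 (0.521). The cause of these changes was not tested. Filters leave fewer probes and left-out arrays fewer arrays, and what this contributed was not tested either. Dim MeDIP spots limit the proximal cluster most, where a median of 35.4% were above background.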
